A study of Rattus norvegicus with 6 samples.

Results

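The guanylate-binding proteins (GBPs) and the immunity-related GTPases (IRGs) are 2 families of interferon-inducible GTPases. The 8 genes described here were the GBP genes Gbp1, Gbp2, Gbp4, Gbp5 and Gbp6 and the IRG genes Ifgga4l, Irgm and Igtp, out of 18166 genes measured. A gene was taken where a probe set named it alone, and each of the 8 had 1 such probe set. They were picked because earlier results of these data had shown them high after subarachnoid haemorrhage, bleeding from a vessel beneath the arachnoid membrane. Their SAH minus sham differences are therefore a description and carry no test.

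Total RNA of cerebral arteries from male rats was hybridised, after biotin labelling, to 6 Affymetrix arrays. In the SAH group, 3 arrays (numbered 1, 4 and 5) held arteries taken 6 hours after the haemorrhage. In the sham group, 3 arrays (6, 7 and 8) held arteries of sham-operated rats, for which the labels give no time after surgery. The sources used here give no strain, no age and no account of how the haemorrhage was made. They do not say that each array came from another animal, so a p-value measures only spread among these 6 samples, which may be technical.

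GBPs are large GTPases of the dynamin superfamily that assemble on the membranes of pathogen vacuoles and on bacteria. IRGs are smaller GTPases, of which a regulatory group, called Irgm proteins in mice, sits on the cell's own membranes and keeps the effector IRGs inactive there. In mouse cells both families are induced strongly by interferon gamma, through promoter elements called gamma-activated sites (GAS) and interferon-stimulated response elements (ISRE). Some GBPs carry a lipid anchor added by prenylation, and in mice GBPs promote caspase-11 activation by bacterial lipopolysaccharide.

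The sequence before the annotated start of the members' transcripts was searched for both elements, because these genes moved together. The ISRE core was searched on both strands as 2 copies of GAAA separated by any 2 bases, and the GAS as TTCNNNGAA, which reads the same on both strands, and matches were allowed to overlap. Windows of 300 bases, from 250 before the start to 50 after it, came from RefSeq (GRCr8 build), and all 8 members had one, with 2 for Gbp1. The 250 bases before the start are printed for the members with a match, which is in capitals.
Irgm, chr10:33742579-33742828, - strand: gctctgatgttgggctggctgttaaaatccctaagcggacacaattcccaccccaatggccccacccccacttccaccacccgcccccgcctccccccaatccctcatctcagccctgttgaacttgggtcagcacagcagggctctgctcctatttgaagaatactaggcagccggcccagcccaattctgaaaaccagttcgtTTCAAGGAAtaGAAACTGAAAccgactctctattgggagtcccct
Igtp, chr10:42874797-42875046, + strand: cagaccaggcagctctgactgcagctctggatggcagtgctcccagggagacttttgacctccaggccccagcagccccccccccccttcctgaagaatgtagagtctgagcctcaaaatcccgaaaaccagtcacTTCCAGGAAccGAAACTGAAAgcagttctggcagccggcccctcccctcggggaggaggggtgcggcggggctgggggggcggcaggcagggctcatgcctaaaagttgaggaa
Gbp1, chr2:234072187-234072436, + strand: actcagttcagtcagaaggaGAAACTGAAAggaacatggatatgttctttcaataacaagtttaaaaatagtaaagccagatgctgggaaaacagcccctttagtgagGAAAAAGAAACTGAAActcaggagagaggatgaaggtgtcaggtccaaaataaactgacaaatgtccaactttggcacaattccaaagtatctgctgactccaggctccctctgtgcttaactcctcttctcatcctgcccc
Gbp2, chr2:234005477-234005726, + strand: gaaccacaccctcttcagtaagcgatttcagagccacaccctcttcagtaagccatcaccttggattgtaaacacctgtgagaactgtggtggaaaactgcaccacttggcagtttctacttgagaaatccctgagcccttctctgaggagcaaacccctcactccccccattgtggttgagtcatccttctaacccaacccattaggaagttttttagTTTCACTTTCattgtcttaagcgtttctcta
Gbp4, chr2:233978236-233978485, + strand: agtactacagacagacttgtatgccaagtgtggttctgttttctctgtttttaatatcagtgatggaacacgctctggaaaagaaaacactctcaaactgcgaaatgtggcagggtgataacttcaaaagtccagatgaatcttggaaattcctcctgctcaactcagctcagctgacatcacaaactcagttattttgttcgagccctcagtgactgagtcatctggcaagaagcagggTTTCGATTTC
Gbp5, chr2:233910749-233910998, + strand: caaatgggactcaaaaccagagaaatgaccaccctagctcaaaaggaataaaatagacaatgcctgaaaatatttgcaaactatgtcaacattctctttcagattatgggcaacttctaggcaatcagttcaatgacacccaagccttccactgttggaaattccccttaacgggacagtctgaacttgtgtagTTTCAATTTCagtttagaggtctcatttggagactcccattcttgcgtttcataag

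An ISRE core lay in 6 of the 9 member windows, against 3.92% of the 33469 windows of this length in the table. A GAS lay in 2 of the 9, against 8.87% of all windows, and both lay in the same 2 windows, against 0.514% of all. Those were the windows of Irgm and Igtp, where a GAS was followed, 2 bases further on, by GAAACTGAAA. The same 10 letters occurred at 2 positions before the downstream start of Gbp1, the later of which overlaps another match. The windows of Gbp6, Ifgga4l and the upstream start of Gbp1 did not hold these letters, which says nothing of the factors themselves. Of the 6 other measured genes of the families, described further on, 3 had an ISRE core, 4 a GAS and 3 both, so holding both was not particular to Irgm and Igtp. These matches are descriptions of letters, and binding was not measured.

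**Figure D1:**
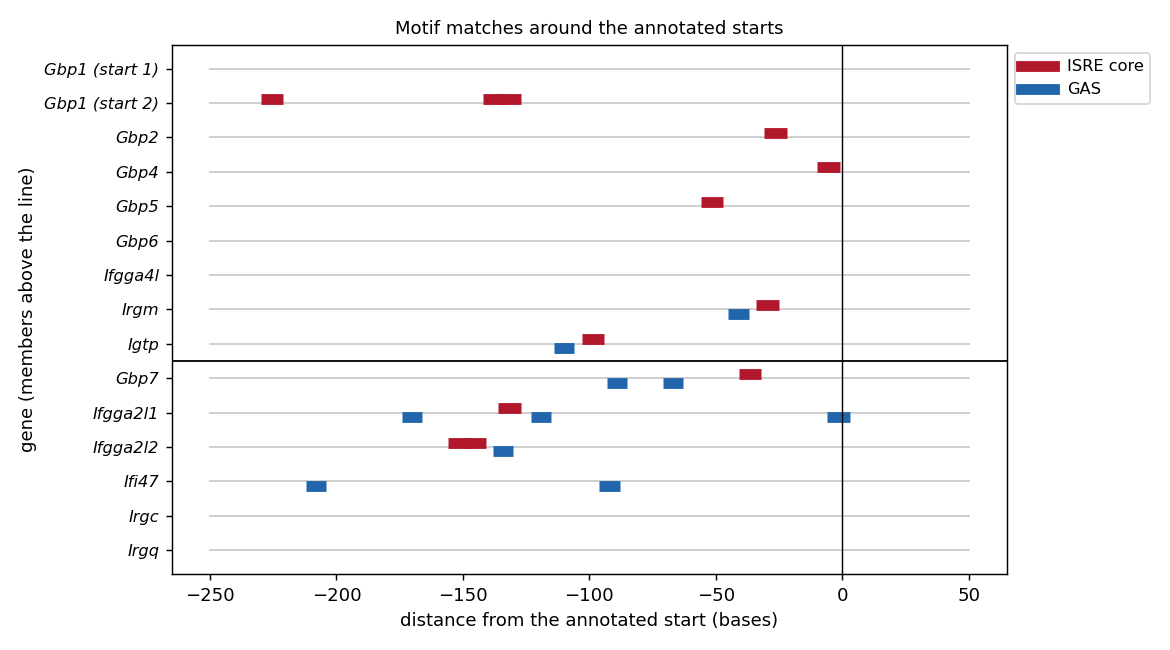
Positions of ISRE core matches (red) and GAS matches (blue) from 250 bases before to 50 bases after each annotated start, with members above the black line and the other family genes below it. The paired GAS and ISRE core of Irgm lie between positions -45 and -25, and those of Igtp between -114 and -94, where -1 is the base before the start.

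In the RefSeq gene table, Gbp5, Gbp7, Gbp4, Gbp2 and Gbp1 follow one another on chromosome 2 with no other protein-coding gene between them, and Gbp6 lies on chromosome 14. Ifgga4l lies on chromosome 18 between Ifgga2l1 and Ifgga2l2. Irgm and Igtp both lie on chromosome 10, where Igtp stands between Igtpl1 and Irgm2.

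Values are log2 expression values after RMA, so a difference of 1 is a doubling. RMA values of the members' probe sets are not set against each other here, only their differences between groups. All 8 members were higher in the SAH arteries than in the sham arteries, and for none did the groups overlap. Over all genes, the 3 SAH values lay above the 3 sham values for 11.4%, and because the members were picked on this contrast nothing is read from their count. The median of the 8 log2 differences was 2.16, against -0.01 over all 18166 genes. The members' differences fell into 2 ranges. Gbp1, Gbp4, Gbp6 and Ifgga4l lay between 2.75 and 3.49, and Gbp2, Gbp5, Irgm and Igtp between 1.29 and 1.56. The families as a whole were not so split, since Ifgga2l1 and Ifgga2l2, which are not members, lay between these ranges at 2.22 and 2.28. In bulk arteries, more cells of a type and more RNA per cell cannot be told apart.

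Gbp1 (probe set 17751717), whose human namesake coats bacteria in the cytosol, read 11.23, 11.70 and 11.74 in SAH arrays 1, 4 and 5, against 8.39, 8.12 and 8.09 in sham arrays 6, 7 and 8. The 3 SAH values lay close together, far above the sham values. The log2 difference was 3.36 ± 0.17 (limma's standard error, SE, as for all differences), a 10.2-fold higher level.

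Gbp6 (probe set 17688149), on another chromosome than the other GBP members, read 11.05, 12.48 and 11.58 in SAH arrays 1, 4 and 5, against 7.19, 8.64 and 8.87 in sham arrays 6, 7 and 8. It was the most variable member in both groups, with sham array 6 far below the other sham arrays and SAH array 4 above the other SAH arrays. The lowest SAH value still lay 2.17 above the highest sham value. The log2 difference was 3.46 ± 0.52, or 11.0-fold.

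Gbp4 (probe set 17743175) read 9.50, 10.44 and 10.40 in SAH arrays 1, 4 and 5, against 6.68, 7.68 and 7.72 in sham arrays 6, 7 and 8. As with Gbp6, sham array 6 was the lowest by a wide step and SAH array 1 the lowest of its group. The log2 difference was 2.75 ± 0.36, or 6.75-fold.

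Gbp2 (probe set 17743188), a prenylated GBP that in mouse cells gathers on the vacuole of Toxoplasma, read 10.12, 11.15 and 11.06 in SAH arrays 1, 4 and 5, against 9.07, 9.33 and 9.69 in sham arrays 6, 7 and 8. SAH array 1 lay nearer to sham array 8 than to the other SAH arrays, with a gap of 0.43 between the groups, the smallest of the 8 members. The log2 difference was 1.41 ± 0.30, or 2.66-fold.

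Gbp5 (probe set 17743150), which in human cells acts at the Golgi against the maturation of viral envelope proteins, read 12.65, 13.09 and 12.99 in SAH arrays 1, 4 and 5, against 11.33, 11.35 and 12.19 in sham arrays 6, 7 and 8. Sham array 8 stood apart from the other sham arrays, and the groups were 0.46 apart. The log2 difference was 1.29 ± 0.25, or 2.44-fold, the smallest of the members, and it was 1.57 without sham array 8.

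Among the IRG members, Ifgga4l (probe set 17723523), of the A group of IRG genes, read 11.43, 12.11 and 11.94 in SAH arrays 1, 4 and 5, against 8.21, 8.50 and 8.30 in sham arrays 6, 7 and 8. Its groups were the furthest apart of the 8, with 2.93 between the lowest SAH and the highest sham value. The log2 difference was 3.49 ± 0.19, or 11.2-fold, the third largest of all 18166 genes.

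Irgm (probe set 17655773), the rat counterpart of the mouse regulatory gene Irgm1, read 11.15, 11.80 and 11.96 in SAH arrays 1, 4 and 5, against 10.04, 10.09 and 10.12 in sham arrays 6, 7 and 8. Igtp (probe set 17646092), known in mice as Irgm3, a regulatory IRG of the endoplasmic reticulum, read 10.44, 11.31 and 11.13 in SAH arrays 1, 4 and 5, against 9.36, 9.37 and 9.47 in sham arrays 6, 7 and 8. Both regulatory genes had sham values that nearly coincided and SAH values that spread. Their log2 differences were 1.55 ± 0.21 and 1.56 ± 0.22, which differ by less than either SE, at 2.93-fold and 2.95-fold.

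**Figure D2:**
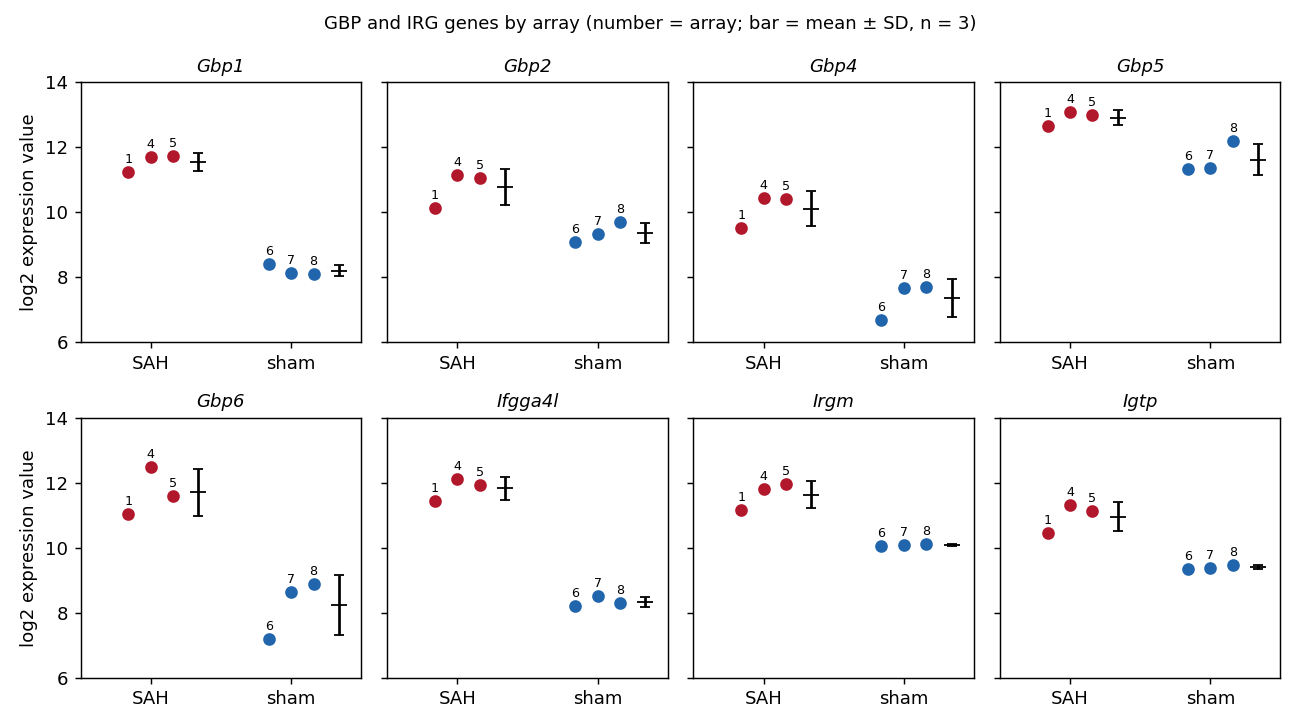
Log2 expression value of each member on each array, with the array number above each point, SAH in red left of sham in blue, and the mean ± SD (n = 3) as a black bar. The groups overlap for none of the 8 genes, and the gaps run from 0.43 for Gbp2 to 2.93 for Ifgga4l.

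The 2 families differed in how much the sham arrays spread. The range over the 3 sham arrays was 0.30 to 1.68 for the 5 GBP members and 0.08 to 0.29 for the 3 IRG members, where the median over all genes was 0.21. Outside the members, Gbp7 had a sham range of 0.64, and the IRG genes Ifgga2l1, Ifgga2l2 and Ifi47 had 0.05, 0.24 and 0.30. Gbp1, at 0.3002, and Ifi47, at 0.297, meet at the border of the 2 families. Genes of a family are not replicates, so this difference carries no test. In the SAH arrays the ranges were 0.44 to 1.43 for the GBP members and 0.68 to 0.87 for the IRG members.

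All 8 members shared their lowest SAH array, but not their highest array of either group. SAH array 1 was the lowest SAH array for 8 of 8 members, against 32.6% of all genes and 87.0% of the 169 other genes that were called higher (adjusted p under 0.05), so this low place was shared widely among the called genes. The highest SAH array was array 4 for 6 members and array 5 for Gbp1 and Irgm. The mean of the 8 members, each relative to its own sham mean, stood at 1.87, 2.68 and 2.52 in SAH arrays 1, 4 and 5, against -0.29, 0.06 and 0.23 in sham arrays 6, 7 and 8. Sham array 8 was the highest sham array for 6 of the 8, the exceptions being Gbp1 and Ifgga4l, against 30.8% of all genes and 40.2% of those 169 other called genes. The dap labelling control, a bacterial RNA, read 6.82, 7.87 and 7.54 in SAH arrays 1, 4 and 5, against 7.31, 7.25 and 7.15 in sham arrays 6, 7 and 8. The thr, phe and lys labelling controls and the background probe sets had the same order within the SAH arrays, array 4 highest and array 1 lowest, which is also that of the member mean. The background probe sets averaged 5.11, 5.47 and 5.37 in SAH arrays 1, 4 and 5, against 5.29, 5.38 and 5.34 in sham arrays 6, 7 and 8. The part of these controls in the members' order was not tested.

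Each of the other 6 measured genes of the families was tested with limma, and p-values were adjusted over the 36495 probe sets of the whole table (Benjamini-Hochberg). Of these, 4 rose, none fell and 2 did not pass, where 0.963% of all genes were called higher. Their median log2 difference was 1.52. The count was 1 when SAH array 4, sham array 6 or sham array 7 was left out and 2 when SAH array 5 was. Like the members, they belong to families already known to be high in these data, so the count is no independent support.

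Gbp7, a neighbour of Gbp5 and Gbp4, read 12.82, 13.27 and 13.28 in SAH arrays 1, 4 and 5, against 11.43, 11.56 and 12.07 in sham arrays 6, 7 and 8. It rose by 1.44 ± 0.21 (limma adjusted p = 0.0393), close to Gbp5 and Gbp2 and below Gbp4 and Gbp1 of the same chromosomal run, though differences between genes were not tested. Its call was lost when SAH array 4 (adjusted p = 0.152), SAH array 5 (0.141), sham array 6 (0.190) or sham array 7 (0.177) was left out.

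Ifgga2l2, next to Ifgga4l, read 12.15, 12.80 and 12.92 in SAH arrays 1, 4 and 5, against 10.22, 10.33 and 10.46 in sham arrays 6, 7 and 8, and rose by 2.28 ± 0.21 (limma adjusted p = 0.00786). Ifi47, an IRG gene, read 12.42, 12.88 and 13.02 in SAH arrays 1, 4 and 5, against 11.17, 11.03 and 11.33 in sham arrays 6, 7 and 8, and rose by 1.60 ± 0.17 (limma adjusted p = 0.0165). With an array left out, Ifgga2l2 missed the threshold at adjusted p of 0.0636 (SAH array 4 out), 0.0612 (sham array 6 out) and 0.0547 (sham array 7 out). Ifi47 missed it at 0.0988 (SAH array 4 out), 0.0574 (SAH array 5 out), 0.110 (sham array 6 out) and 0.102 (sham array 7 out).

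Ifgga2l1 had 3 probe sets naming it alone, the only family gene with more than 1. The brightest read 12.22, 12.67 and 12.56 in SAH arrays 1, 4 and 5, against 10.27, 10.28 and 10.24 in sham arrays 6, 7 and 8, and rose by 2.22 ± 0.13 (limma adjusted p = 0.00251). The other probe sets rose by 1.77 ± 0.12 and 1.35 ± 0.20 (limma adjusted p = 0.00316 and 0.0422), so probe sets of one gene agreed in direction and differed in size. RGD1309362, which RefSeq lists with the synonym Ifgga1 and which was added after its values were seen, rose by 1.96 ± 0.13 (limma adjusted p = 0.00306). The Ifgga genes and the GBP genes each have close copies within their own family. The probe letters were not used here, so signal shared between copies cannot be told apart.

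The 2 family genes that did not pass lie on chromosome 1, apart from the other family genes measured. Irgc, which in mice is a testis gene, read 6.94, 6.67 and 6.84 in SAH arrays 1, 4 and 5, against 6.81, 6.85 and 6.76 in sham arrays 6, 7 and 8. Irgq, an atypical IRG gene, read 8.07, 8.15 and 7.90 in SAH arrays 1, 4 and 5, against 8.16, 8.13 and 7.92 in sham arrays 6, 7 and 8. Their differences were 0.01 ± 0.11 and -0.03 ± 0.12 (limma adjusted p = 0.975 and 0.944). Neither window held an ISRE core or a GAS, where 12.3% of all windows held either. The windows of the members Gbp6 and Ifgga4l held neither as well.

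**Figure D3:**
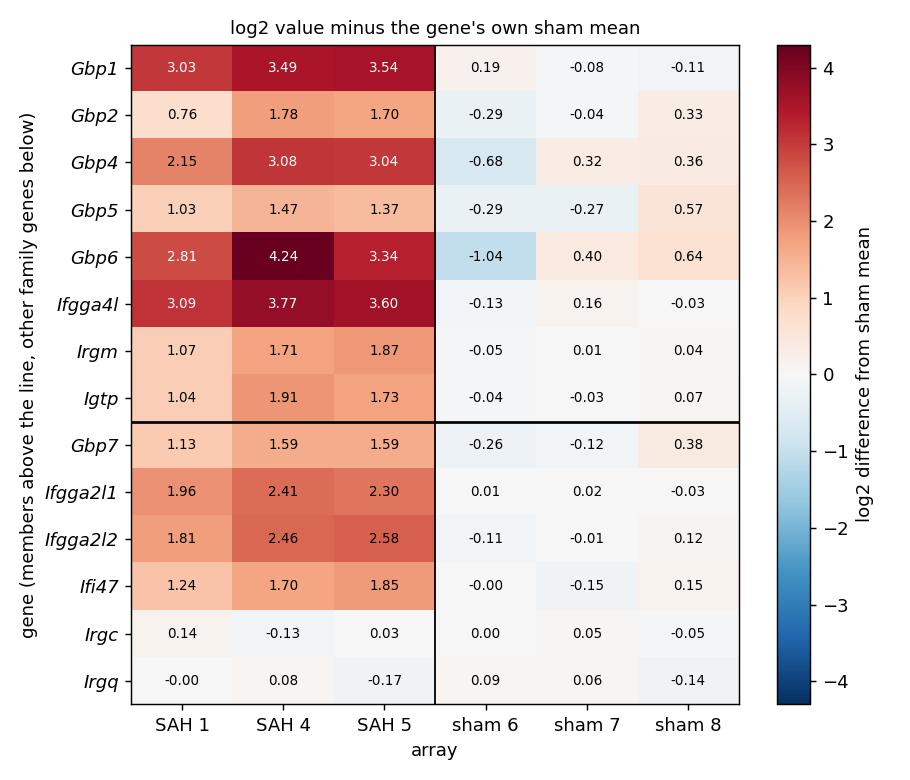
Log2 value minus the gene's own sham mean for the 8 members (above the line) and 6 other family genes (below it), with SAH arrays left of sham arrays. In the SAH arrays the members run from 0.76 for Gbp2 in array 1 to 4.24 for Gbp6 in array 4, and in the sham arrays from -1.04 for Gbp6 in array 6 to 0.64 for Gbp6 in array 8, while Irgc and Irgq stay within 0.17 of 0.

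Genes whose profile over the 6 arrays was most like the mean of the members were sought among all genes outside the families. Likeness was the root mean square, over the 6 arrays, of the difference between a gene's values, relative to its own sham mean, and the member mean. The nearest were Isg20, an exonuclease gene (0.13), Ifih1, the RNA sensor MDA5 (0.13), Tor3a, a torsin ATPase gene (0.18), Oas1b, of the OAS family (0.19), Samhd1, a deoxynucleotide hydrolase gene (0.19), and Trim30d, of the TRIM family (0.19). Their log2 differences lay between 2.18 for Samhd1 and 2.52 for Oas1b. The members themselves lay further from their own mean, from 0.35 for Gbp4 to 0.90 for Gbp6. This ranking uses the same contrast that chose the members and is a description.

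Of 18 measured genes of interferon gamma signalling, 4 rose, none fell and 14 did not pass, where 0.963% of all genes were called higher. All 18 differences were above 0, with a median of 0.46, where 8599 of all 18166 genes had a difference above 0. Ifng, the ligand, read 6.67, 6.69 and 6.57 in SAH arrays 1, 4 and 5, against 6.65, 6.59 and 6.20 in sham arrays 6, 7 and 8, below the array medians of 7.31 to 7.37 throughout. It differed by 0.16 ± 0.14 (limma adjusted p = 0.669), and the receptor genes Ifngr1 and Ifngr2 by 0.15 ± 0.10 and 0.09 ± 0.15 (0.544 and 0.842).

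Stat2 and Irf9, subunits of the factor that binds the ISRE, rose by 1.23 ± 0.11 and 0.89 ± 0.10 (limma adjusted p = 0.00786 and 0.0180). Stat2 read 12.05, 12.27 and 12.21 in SAH arrays 1, 4 and 5, against 10.91, 11.08 and 10.84 in sham arrays 6, 7 and 8. Batf2, a transcription factor gene induced by interferons, rose by 1.55 ± 0.14 (0.00750), and Nlrc5, the activator of MHC class I genes, by 2.10 ± 0.31 (0.0416). Nlrc5 read 10.02, 11.03 and 11.19 in SAH arrays 1, 4 and 5, against 8.54, 8.52 and 8.89 in sham arrays 6, 7 and 8, so that SAH array 1 was again the lowest SAH array. Socs1, a feedback inhibitor, and Irf2 did not pass, at 1.90 ± 0.51 and 0.71 ± 0.18 (limma adjusted p = 0.167 and 0.154), although their groups did not overlap. The count was 0 when SAH array 4 or sham array 6 was left out. It was 2 when any of SAH array 5, sham array 7 and sham array 8 was left out, and 7 when SAH array 1 was.

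The processes in which GBPs and IRGs take part were covered by 4 further lists with 43 measured genes. Among 10 genes for caspases and inflammasomes, 1 rose, none fell and 9 did not pass, where 0.963% of all genes were called higher. Their median difference was 0.62. An unadjusted limma p under 0.05 was found for 6 of the 10, and for 3385 of all 18166 genes. The SAH values all lay above the sham values for 7 of the 10, and for 11.4% of all genes. Casp8, an apoptotic caspase gene, read 9.27, 9.56 and 9.74 in SAH arrays 1, 4 and 5, against 8.49, 8.68 and 8.60 in sham arrays 6, 7 and 8, and rose by 0.93 ± 0.14 (limma adjusted p = 0.0452). Casp4, the rodent caspase-11 gene, read 11.68, 12.27 and 12.26 in SAH arrays 1, 4 and 5, against 10.85, 11.06 and 11.10 in sham arrays 6, 7 and 8. It differed by 1.07 ± 0.18 without passing (0.0619), as did Nlrp1a by 0.63 ± 0.14 (0.111).

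Among 16 genes for autophagy conjugation and tethering, 1 fell, none rose and 15 did not pass, where 0.33% of all genes were called lower. Some conjugation genes of this list are needed by IRG and GBP proteins to reach vacuoles in mice. Ulk1, the kinase that starts autophagy and not a conjugation gene, fell by 0.84 on the log2 scale (SE 0.12, limma adjusted p = 0.0416). It read 10.03, 9.80 and 9.78 in SAH arrays 1, 4 and 5, against 10.64, 10.88 and 10.60 in sham arrays 6, 7 and 8, with no overlap. Calcoco1 and Gabarapl1 differed by -0.70 ± 0.13 and -0.57 ± 0.13 (limma adjusted p = 0.0717 and 0.133). The calls of Casp8 and Ulk1 each ended when any array other than SAH array 1 was left out, with adjusted p of 0.128 to 0.220 for Casp8 and 0.101 to 0.196 for Ulk1.

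None of 8 prenylation genes passed, with a median of -0.08 and the lowest p for Icmt (-0.31 ± 0.11) and Fntb (-0.40 ± 0.20), at limma adjusted p of 0.257 and 0.424. None of 9 atlastin and dynamin-like GTPase genes passed either, with a median of -0.18. Among these relatives of the GBPs, Atl2 differed by -0.28 ± 0.10 and Dnm1 by -0.39 ± 0.15 (limma adjusted p = 0.280 and 0.317). At unadjusted limma p under 0.05, these 2 lists held Icmt, Atl2 and Dnm1, where 3385 of all 18166 genes had such a p.

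**Figure D4:**
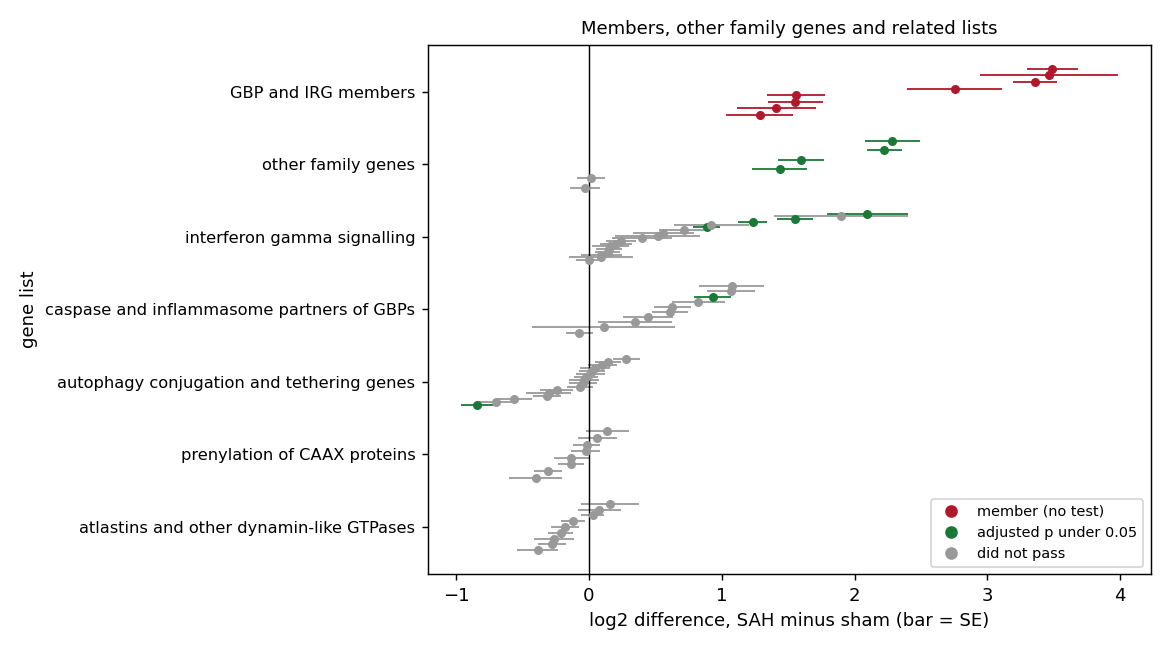
Log2 differences, SAH minus sham, with SE bars, for the members (red, no test), the other family genes and 5 related lists, where green marks an adjusted p under 0.05 and grey a gene that did not pass. The members and 4 other family genes lie between 1.29 and 3.49, and the prenylation and dynamin-like genes between -0.40 and 0.16.

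Markers of cells that could bring these transcripts were measured on the same arrays. The 11 neutrophil markers, summed as linear values, came to between 11297 and 18999 in the SAH arrays and between 3910 and 13220 in the sham arrays, where the highest sum was that of sham array 8. Such sums, here and for the other lists, follow their brightest probe sets most. For the neutrophil markers that was Lcn2, at 12.76, 12.56 and 12.64 in SAH arrays 1, 4 and 5, against 11.27, 12.20 and 12.44 in sham arrays 6, 7 and 8. Of the 11 markers, Mpo, Elane and Ngp lay below the array median on every array, and none of the 11 passed limma's test. Csf3r (1.81 ± 0.70), Trem1 (1.79 ± 0.65) and Lcn2 (0.68 ± 0.29) had an unadjusted p under 0.05, as had 3385 of all 18166 genes. S100a8 differed by 1.27 ± 0.89 and S100a9 by 1.90 ± 0.99. With each array's mean over these markers as a covariate, a fit chosen after the data were seen, the median difference of the members was 1.91, against 2.16 without it. In the same fit the other family genes called numbered 1, against 4 without the covariate, and the interferon gamma signalling genes called numbered 0, against 4. Relative to its sham mean, the covariate stood at 0.69, 0.79 and 1.65 in SAH arrays 1, 4 and 5, against -0.71, -0.53 and 1.25 in sham arrays 6, 7 and 8. A further term that varies with group can widen the SEs of a fit to 6 arrays. What the lost calls rest on was not tested.

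The 11 markers of T cells and natural killer cells summed to between 1944 and 2046 in the SAH arrays and between 1462 and 1968 in the sham arrays. Cd3e, Cd3d, Cd3g, Ncr1, Klrd1 and Gzmb lay below the array median on every array. None of the 11 passed, with 6 at an unadjusted limma p under 0.05, where 3385 of all 18166 genes had such a p. The largest differences among those 6 were those of Nkg7 (1.02 ± 0.26) and Prf1 (0.56 ± 0.13). Cd3e differed by 0.38 ± 0.14 and Cd3d by 0.03 ± 0.11. The 12 monocyte and macrophage markers summed to between 15277 and 15475 in SAH and between 12869 and 17618 in sham arrays, and none passed, with 6 at an unadjusted p under 0.05. Their differences ran both ways, with Ccr2 at 1.86 ± 0.59, Cd163 at -1.29 ± 0.44 and Mrc1 at -1.24 ± 0.39. Csf1r differed by -0.50 ± 0.11 and Cd68 by 0.37 ± 0.18. The SAH values all lay above the sham values for 1 of the 12, Ccr2, and all below them for 3, among them Csf1r. Over all genes these shares were 11.4% and 15.4%. The 8 smooth muscle markers summed to between 35735 and 36553 in SAH and between 41301 and 45395 in sham arrays. Among them 1 fell, Smtn (-1.18 ± 0.13, limma adjusted p = 0.0197), where 0.33% of all genes were called lower. All 8 differences were below 0, with 3 at an unadjusted p under 0.05 (Myh11 differed by -0.40 ± 0.11 and Tagln by -0.15 ± 0.09). For 6 of the 8 the SAH values all lay below the sham values, as for 15.4% of all genes. The 8 endothelial markers summed to between 10796 and 11330 in SAH and between 10768 and 12358 in sham arrays. Their median difference was -0.29, with 2 of the 8 above 0, Cdh5 among them (Cdh5 differed by 0.61 ± 0.11 and Tek by -0.50 ± 0.15). The sums were, for the 8 fibroblast markers, between 25353 and 26858 in SAH and between 27011 and 30744 in sham arrays (Pdgfra differed by -0.27 ± 0.18 and Col1a1 by -0.19 ± 0.13). For the 9 brain cell markers they were between 2041 and 3335 in SAH and between 2397 and 3820 in sham arrays (Rbfox3 differed by 0.12 ± 0.11 and Snap25 by -0.21 ± 0.45). None of these 3 lists had a called member, with 4, 0 and 1 at an unadjusted p under 0.05. No marker of the monocyte and macrophage, smooth muscle, endothelial, fibroblast or brain cell lists lay below the array median on every array. The part of cell makeup in the members' differences was not tested.

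**Figure D5:**
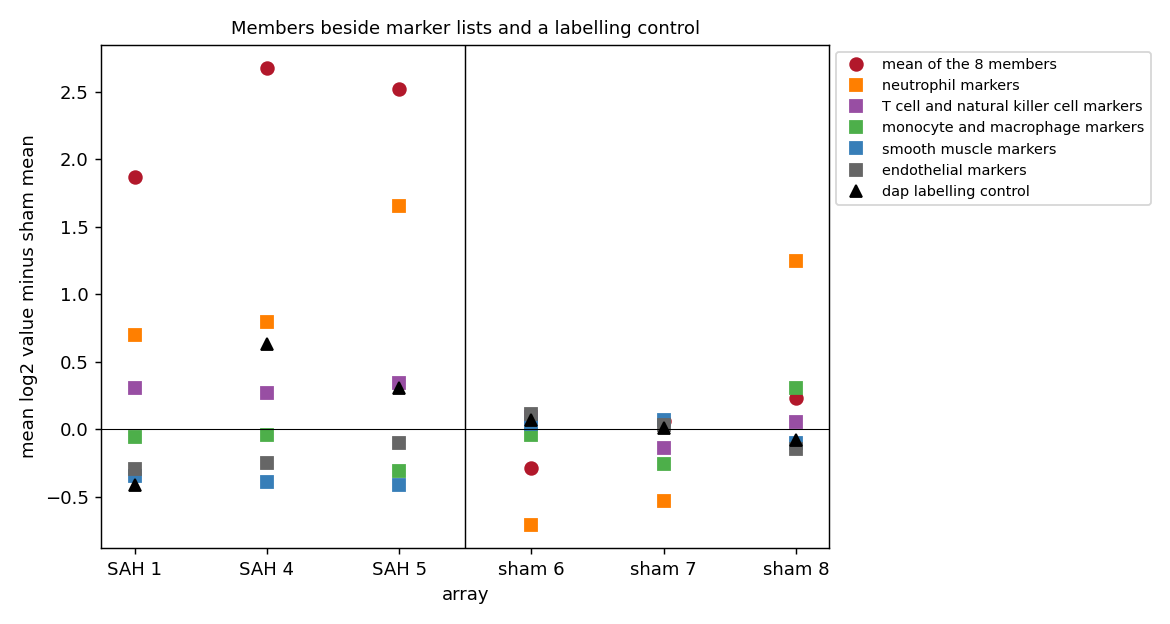
Mean log2 value relative to the sham mean, by array, of the 8 members (red circles), 5 marker lists (squares) and the dap labelling control (black triangles), with SAH arrays left of sham arrays. The members stand at 1.87 to 2.68 in the SAH arrays and at -0.29 to 0.23 in the sham arrays, while the neutrophil markers are high in sham array 8 as well.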

How the data were processed

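Expression was measured on 6 arrays of rat cerebral artery RNA. The deposited values are log2 expression values, made by the authors with Affymetrix Expression Console 1.1.2 and RMA per the submitters' processing notes. The sources used here do not give settings or a genome build. The values were used without further scaling.

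Of 36685 probe sets, 190 controls were left out and 36495 tested. GEO's platform annotation, with symbols updated through RefSeq, named 1 gene for 18511, several for 575 and none for 17409. The brightest probe set stood for a gene. The comparison of SAH with sham used lmFit and eBayes of limma 3.58.1 (R 4.3.3; two-sided, no covariate), Benjamini-Hochberg over all 36495, called at adjusted p under 0.05. The number of arrays limits the precision. The fit was tested on simulated data.

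The members and the gene lists were chosen with earlier results of these data known. Named by rule were all family genes, the called genes of each list (up to 8) with up to 2 that did not pass, Ifng, the first 2 measured markers of each list, and the 6 nearest profiles. Ifngr1, Ifngr2, Smtn, 8 further markers (Csf3r, Trem1, Lcn2, Nkg7, Prf1, Ccr2, Cd163, Mrc1) and the markers lying below the array medians were named outside the rule. Alternatives were a filter on dim probe sets (kept if above the array's median on at least 3 arrays), other scalings, eBayes options, array weights, another threshold, gene means and each array left out.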

Additional observations from a re-analysis of the deposited data

How the results depend on the processing

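The median log2 difference of the members was 2.16 and lay between 2.15 and 2.16 under the other scalings. Gene means and the filter on dim probe sets, which kept all 8, repeat it by construction. It lay between 1.98 and 2.44 with 1 array left out and at 1.91 with the neutrophil covariate. With groups that do not overlap, leaving out an array cannot change a member's sign. The fits of single members ranged from 1.14 for Gbp5 without sham array 6 to 3.79 for Gbp6 without SAH array 1. Each member had 1 probe set, so no other could be compared.

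The count of called genes was 235. It was 672 with the filter on dim probe sets, which tests 18544, 363 with trend and robust options, 373 with array weights, 530 at an adjusted p under 0.10, and between 29 (without sham array 6) and 670 (without SAH array 1) with 1 array left out. The other family genes called numbered 4, between 1 and 4 with 1 array left out, and 1 with the neutrophil covariate. Those of interferon gamma signalling numbered 4, between 0 and 7 with 1 array left out, and 0 with that covariate. Of the 43 genes of the further lists 2 were called, 6 with the filter on dim probe sets, 4 with trend and robust options, 4 with array weights, 4 at an adjusted p under 0.10, and between 0 and 6 (without SAH array 1) with 1 array left out. The causes were not tested. No paired analysis was made because the labels name no pairing of the arrays.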
